A study of Mus musculus with 2 samples.

Results

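The Eph receptor and ephrin family is described here by 10 genes, the receptors Epha3, Epha4, Epha5, Epha7, Ephb1 and Ephb2 and the ligands Efna2, Efna5, Efnb1 and Efnb2, out of 24411 genes counted in the subventricular zone (SVZ) and the cortex of embryonic mice. The genes were taken by their symbols, and all 10 were found in both libraries. Areas were cut from sections of fresh-frozen mouse brain at embryonic day 16.5 by laser capture microdissection (LCM). In this method a laser cuts a chosen piece out of a stained section. RNA-seq gave 1 library for each area. The labels name no genotype or treatment, and the sources used here do not give strain, sex or how many embryos were cut. The area is called cortex on the sample and cortical plate in the description of the series.

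Eph receptors are receptor tyrosine kinases that sit in the cell membrane, and the ephrins that bind them are held on the membrane of the neighbouring cell, so that the signal passes where cells touch. Ephrin-A ligands are anchored by a lipid and mainly bind EphA receptors. Ephrin-B ligands span the membrane and mainly bind EphB receptors, while EphA4 also binds ephrin-B ligands. Signals run into the receptor cell and back into the ephrin cell, and in the developing brain they act in axon guidance, cell migration, the ordering of topographic maps and the upkeep of progenitors.

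Gene-assigned reads numbered 51435667 in SVZ and 22050693 in cortex, a depth 2.33 times as great in the SVZ. Levels are given as CPM, the reads of a gene per 1000000 gene-assigned reads, and differences as a log2 ratio (SVZ CPM over cortex CPM) with its exact (Clopper-Pearson) 95% interval. The intervals cover counting error only, since PCR copies without molecular identifiers are not independent molecules. With 1 library per area there was no replicate check and no test, so each ratio compares these libraries. In bulk tissue, fewer cells that express a gene and less RNA per cell cannot be told apart.

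The areas were checked against marker genes. All 8 apical progenitor genes, 5 of 5 intermediate progenitor genes and 5 of 5 proliferation genes exceeded the cortex level by 4-fold or more in the SVZ, among them Pax6 (9245 and 15 reads in SVZ and cortex), Sox2 (2959 and 95) and Mki67 (13865 and 124). All 5 deep-layer neuron genes and all 7 neuronal genes had the higher value in the cortex, such as Cdh13 (284 and 10634 reads), although the ratio of Dpf3 (-0.31, interval -0.76 to 0.16) did not differ from 0 beyond counting error. The SVZ library also carried neuronal transcripts, with 892 CPM summed over the 7 neuronal genes against 5411 CPM in the cortex library. Among lists for other cells, blood vessel genes summed to 145 and 111 CPM in SVZ and cortex, ventral telencephalic and interneuron genes to 159 and 99.3 CPM, microglial genes to 50.3 and 5.53 CPM, choroid plexus genes to 244 and 0.907 CPM (of which Ttr 240.4 and 0.726) and meningeal genes to 3.99 and 8.80 CPM. Of the meningeal genes Col1a1 was at 0 reads in the SVZ library. Of the choroid plexus genes, Folr1 and Kcne2 were at 0 reads in the cortex library. Of the 5 erythroid genes, 4 (all globin genes) were at 0 reads in both libraries. The erythroid list summed to 14.8 and 7.48 CPM, all of it from Alas2. The counts leave out reads that map to several places, and whether globin reads were lost in this way was not tested. The part of these cell types in the ratios given here was not tested.

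Both directions were found among the 10 genes. Efnb1 and Epha4, 2 of 10 genes, exceeded the cortex level by 2-fold or more in the SVZ, as did 20.0% of the 12738 genes that averaged 1 CPM or more. Epha7, Ephb1, Efna2 and Efna5, 4 of 10 genes, exceeded the SVZ level by as much in the cortex, as did 15.6% of all genes. At a threshold of 4-fold, 1 gene remained in each direction, Efnb1 in the SVZ (background 10.2%) and Ephb1 in the cortex (background 7.01%). The median log2 ratio was -0.42 over the 10 genes and 0.11 over all 12738 genes. For all 10 genes the interval excluded equal CPM, as it did for 86.8% of all genes, so that at this depth an interval away from 0 sets no gene apart. All 10 genes had 1 CPM or more in both libraries, so none passed the minimum through 1 library alone.

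**Figure D1:**
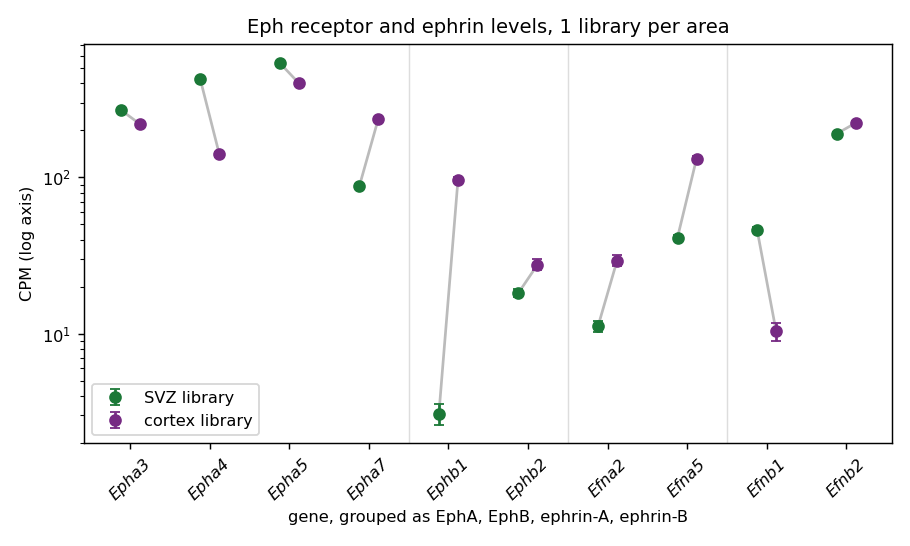
Levels of the 10 genes in CPM on a log axis, with a point for each library (green for SVZ, purple for cortex), bars for the exact 95% Poisson interval of the count and a grey line joining the libraries. The widest gap is that of Ephb1, from 3.05 CPM in the SVZ library to 96.1 CPM in the cortex library. Efnb1 and Epha4 slope the other way, as do Epha3 and Epha5 less steeply.

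The EphA receptors were the most abundant group in reads. Epha4 encodes a receptor that binds ligands of both classes. Epha4 was counted with 21919 reads in the SVZ and 3107 in the cortex, or 426 and 141 CPM. The SVZ level was 3.02-fold the cortex level, which is 1.60 (1.54 to 1.65) on the log2 scale. Epha4 lies on chromosome 1 from 77367185 to 77515088 (GRCm38, as all positions here).

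Epha5, a receptor of ephrin-A ligands known from axon guidance and topographic mapping, had 27761 and 8831 reads, or 540 and 400.5 CPM in SVZ and cortex. The log2 ratio of Epha5 (chromosome 5, 84054761 to 84417382) was 0.43 (0.40 to 0.47), well within 2-fold. Epha3, which encodes a further receptor for ephrin-A ligands (chromosome 16, 63543534 to 63864175), had 13919 and 4844 reads, which gave 271 and 220 CPM and a log2 ratio of 0.30 (0.25 to 0.35). Epha3 and Epha5 were thus high in both areas, with a small excess in the SVZ library.

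Epha7 went the other way. The gene encodes an EphA receptor known from the topography of corticothalamic axons and from apoptosis of forebrain progenitors (chromosome 4, 28813131 to 28967499). Reads of Epha7 numbered 4511 in the SVZ and 5242 in the shallower cortex library, or 87.7 and 238 CPM. The cortex level was 2.71-fold the SVZ level (log2 ratio -1.44, -1.50 to -1.38). As a share of the reads of the 4 EphA receptors, which does not depend on how the libraries are scaled, Epha7 made up 6.62% (6.44 to 6.81) in the SVZ and 23.8% (23.2 to 24.4) in the cortex. Epha4 made up 32.2% (31.8 to 32.5) and 14.1% (13.7 to 14.6). The share of Epha5 was 40.8% in the SVZ and 40.1% in the cortex, and the share of Epha3 was 20.4% and 22.0%. Summed over the 4 receptors, 1324 and 999 CPM were counted, a log2 ratio of 0.41 (0.38 to 0.43).

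Of the EphB receptors, Ephb1 had the largest ratio of the 10 genes in either direction. Ephb1, whose product steers retinal axons at the optic chiasm, was counted with 157 reads in the SVZ and 2118 in the cortex, or 3.05 and 96.1 CPM. The cortex level of the gene (chromosome 9, 101922128 to 102354693) was 31.5-fold the SVZ level, or -4.98 (-5.22 to -4.74) as a log2 ratio. Of all 12738 genes, 1.37% had a ratio at or below that of Ephb1. Its exons overlap those of Gm26846, a long noncoding RNA on the other strand, over 152 bases, or 2.17% of its exon length.

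Ephb2 encodes an EphB receptor known from axon guidance and excitatory synapses (chromosome 4, 136647539 to 136835988). Counts of 937 and 609 reads gave 18.2 and 27.6 CPM and a log2 ratio of -0.60 (-0.75 to -0.45), within 2-fold. Of the reads of this pair, Ephb2 held 85.6% (83.4 to 87.7) in the SVZ library and 22.3% (20.8 to 23.9) in the cortex library, and Ephb1 held the rest. Among all 5 EphB receptors counted, Ephb2 held 43.7% (41.6 to 45.8) of the reads in the SVZ and 20.0% (18.6 to 21.5) in the cortex, and Ephb1 7.32% (6.26 to 8.51) and 69.6% (67.9 to 71.2). The level summed over the pair was 21.3 CPM in the SVZ and 124 CPM in the cortex, a log2 ratio of -2.54 (-2.64 to -2.44), and that over all 5 receptors was 41.7 and 138 CPM, a log2 ratio of -1.73 (-1.81 to -1.65).

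Efna2 and Efna5, the ephrin-A ligands among the 10 genes, were higher in the cortex library. Efna5, a ligand known as a repellent in retinal and thalamocortical maps, had 2121 and 2911 reads, or 41.2 and 132 CPM in SVZ and cortex. The cortex level of Efna5 (chromosome 17, 62604184 to 62881317) was 3.20-fold the SVZ level, with a log2 ratio of -1.68 (-1.76 to -1.60). Efna2, which encodes a further lipid-anchored ligand (chromosome 10, 80179482 to 80190010), had 572 and 646 reads, or 11.1 and 29.3 CPM. Its cortex level was 2.63-fold the SVZ level, with a log2 ratio of -1.40 (-1.56 to -1.23). Of the reads of these 2 ligands, Efna5 held 78.8% (77.2 to 80.3) in the SVZ and 81.8% (80.5 to 83.1) in the cortex. Among all 5 ephrin-A ligands its share was 54.9% (53.3 to 56.5) and 70.1% (68.6 to 71.5). The sum over Efna2 and Efna5 was 52.4 and 161 CPM, a log2 ratio of -1.62 (-1.70 to -1.55), and that over all 5 ligands 75.1 and 188 CPM, a log2 ratio of -1.33 (-1.39 to -1.26).

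The ephrin-B ligands parted. Efnb1 encodes a transmembrane ligand known from the maintenance of neural progenitors (chromosome X, 99136130 to 99148991). Efnb1 was counted with 2385 reads in the SVZ and 228 in the cortex, or 46.4 and 10.3 CPM. The SVZ level was 4.48-fold the cortex level (log2 ratio 2.16, 1.97 to 2.37), the largest ratio of the 10 genes in that direction. Efnb2, a transmembrane ligand that also marks arterial endothelium (chromosome 8, 8617434 to 8661242), had 9775 and 4917 reads, or 190.04 and 223 CPM, and a log2 ratio of -0.23 (-0.28 to -0.18). Of the reads of Efnb1 and Efnb2, Efnb1 made up 19.6% (18.9 to 20.3) in the SVZ and 4.43% (3.89 to 5.03) in the cortex. The level summed over both was 236 and 233 CPM, and the interval of its log2 ratio of 0.02 (-0.03 to 0.07) included 0. Scaling decided this, since with upper-quartile factors the ratio was -0.08 (-0.13 to -0.03), and the intervals with TMM and DESeq2 factors also excluded 0.

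**Figure D2:**
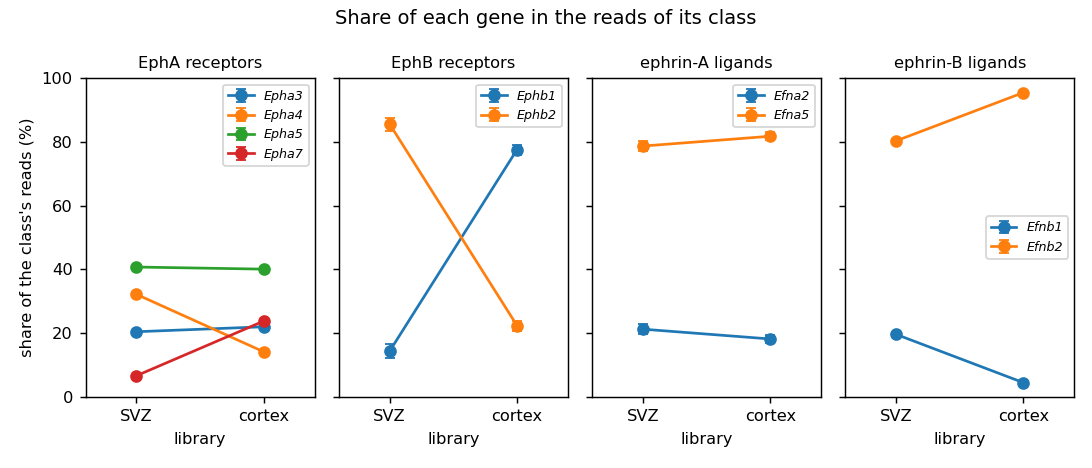
Share of each of the 10 genes in the summed reads of those of its class among the 10, in percent, in the SVZ and the cortex library, with 1 panel per class and bars for the exact 95% interval. The lines cross between Ephb1 and Ephb2 and between Epha4 and Epha7, and run nearly level for the ephrin-A ligands.

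The differences between genes of a class are free of the library scaling. The log2 ratio of Efnb1 exceeded that of Efnb2 by 2.40, that of Ephb2 exceeded that of Ephb1 by 4.38, and that of Epha4 exceeded that of Epha7 by 3.04. By contrast Efna2 exceeded Efna5 by 0.28, and Epha3 was below Epha5 by -0.13. The EphA receptors and the ephrin-B ligands thus held genes on both sides, while Ephb1, Ephb2, Efna2 and Efna5 all had the higher level in the cortex. This holds for the genes chosen, since Ephb3, Ephb4, Efna1 and Efna4 had the higher level in the SVZ.

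**Figure D3:**
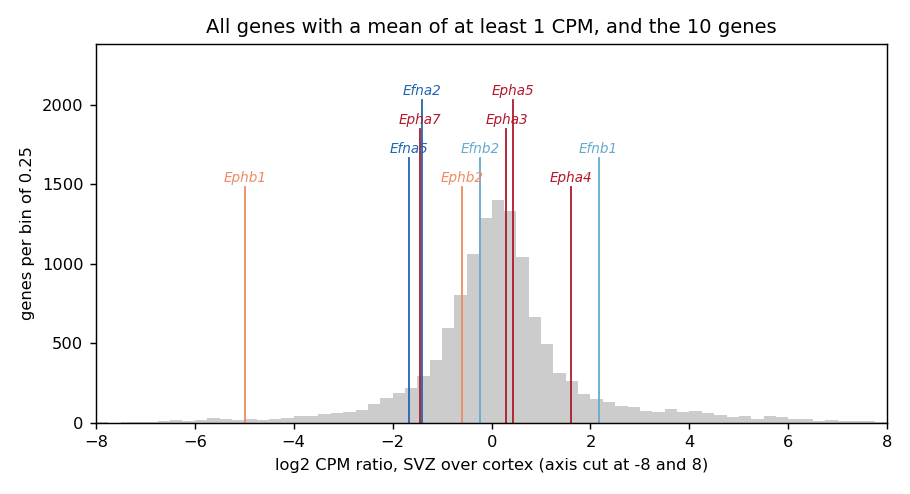
Histogram of the log2 CPM ratio (SVZ over cortex) of the 12738 genes compared, in bins of 0.25 on an axis cut at -8 and 8, with vertical lines for the 10 genes coloured by class. Ephb1 lies far in the cortex tail, Efnb1 and Epha4 lie on the SVZ side, and Epha3, Epha5, Ephb2 and Efnb2 lie in the body of the distribution.

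To compare levels between genes, reads were divided by exon length and scaled to 1000000 per library, a quantity called the per-length level. The order of the genes depended on which exons were counted as the length. With all annotated exons, Epha4 was first in the SVZ library with a per-length level of 184, followed by Epha5 (112), Epha3 (108), Efnb2 (96.2), Efnb1 (46.6), Efna5 (35.5), Epha7 (30.8), Efna2 (18.1), Ephb2 (5.02) and Ephb1 (1.51). No neighbours in this order had overlapping counting intervals. With the exons of RefSeq-matched transcripts alone, an alternative chosen after seeing the data, Epha5 (168) came before Epha4 (153) and Epha7 (26.4) before Efna5 (23.3). The length of Epha5 was 16739 bases over all exons and 7328 bases over the RefSeq-matched ones, that of Epha7 was 9884 and 7575 bases, and that of Efna5 was 4032 bases by either. Epha3, Efnb2, Efnb1, Efna2, Ephb2 and Ephb1 kept their places.

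In the cortex library the per-length levels lay closer together. With all exons, Efna5 (126) and Efnb2 (125) led and did not differ beyond counting error. Epha3 (97.2), Epha7 (92.5) and Epha5 (92.1) came next, and neither Epha3 and Epha7 nor Epha7 and Epha5 differed beyond it. Epha4 (67.3) followed, then Efna2 (52.9) and Ephb1 (52.8), again not separable, and last Efnb1 (11.5) and Ephb2 (8.43). With RefSeq-matched exons Epha5 was first with 142, followed by Efnb2 (121), Epha3 (101), Efna5 (85.2) and Epha7 (81.7). Whether neighbours differed beyond counting error was not examined for the RefSeq-matched order in either library. Ephb2 was the lowest of the 10 genes in the cortex and Ephb1 the lowest in the SVZ with either length. Among genes with a read, Epha4 stood at percentile 92.2 of the per-length levels in the SVZ and at 80.0 in the cortex, while Ephb1 stood at 24.0 and 76.3.

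Summed per length, the classes took different parts of the total over the 10 genes. The EphA receptors held 68.2% of it in the SVZ and 48.1% in the cortex (73.7% and 55.2% with RefSeq-matched exons). The EphB receptors held 1.02% and 8.43%, the ephrin-A ligands 8.41% and 24.6%, and the ephrin-B ligands 22.4% and 18.8%. With RefSeq-matched exons the ephrin-A ligands held 5.68% and 17.5%, and the ephrin-B ligands 19.8% and 18.7%. Which of these ligand classes held more in the cortex thus depended on the length. Over the 10 genes, EphA receptors exceeded ephrin-A ligands 8.10 times in the SVZ and 1.95 times in the cortex, or 12.97 and 3.16 times with RefSeq-matched exons. Over all 9 EphA receptors and 5 ephrin-A ligands counted the excess was smaller, 4.31 and 1.51 times, or 6.90 and 2.44 times with RefSeq-matched exons. These sums include Epha4, whose product also binds ephrin-B ligands. With all exons, Epha4 made up 184 of the sum of 434 over the 4 EphA receptors in the SVZ. In the cortex Epha4 made up 67.3 of 349.

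Efnb1 and Efnb2 together exceeded Ephb1 and Ephb2 21.9 times in the SVZ and 2.23 times in the cortex, or 23.2 and 2.15 times with RefSeq-matched exons. Over all 3 ephrin-B ligands and 5 EphB receptors the excess was 6.86 and 2.15 times, or 7.74 and 2.09 times with RefSeq-matched exons, so that the size in the SVZ rested on which receptors were summed. In each of these sums the EphA receptors and the ephrin-B ligands were in excess in both areas, and the excess was smaller in the cortex library.

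**Figure D4:**
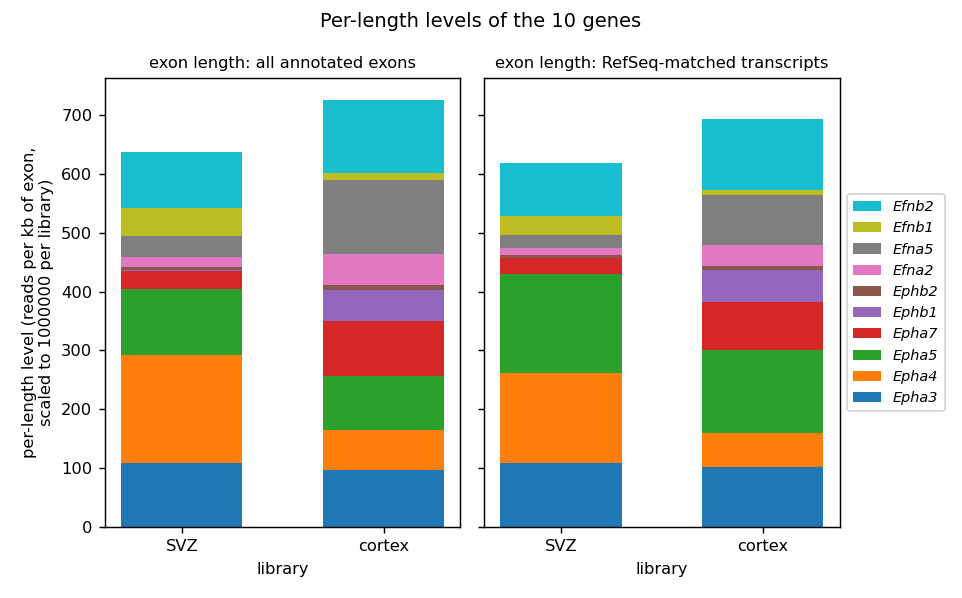
Stacked bars of the per-length levels of the 10 genes (reads per kilobase of exon, scaled to 1000000 per library) in the SVZ and the cortex library, with the length taken over all annotated exons on the left and over RefSeq-matched transcripts on the right. The EphA receptors at the foot of the bars take 68.2% of the SVZ bar and 48.1% of the cortex bar on the left, and Ephb1 is visible only in the cortex.

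The other 12 genes of the family were then examined, of which 7 averaged 1 CPM or more. Of these 7, 2 exceeded 2-fold towards the SVZ (background 20.0%) and 2 towards the cortex (background 15.6%), 1 in each direction reaching 1 CPM in its higher library alone. Their median log2 ratio was 0.63, against 0.11 over all genes. Ephb4, which encodes the receptor of ephrin-B2 and marks venous endothelium, had 387 and 30 reads (7.52 and 1.36 CPM) and a log2 ratio of 2.47 (1.93 to 3.05). The blood vessel genes beside it had ratios from -1.26 to 0.87, and 5 of 8 were higher in the SVZ library. Ephb3, a further EphB receptor, had 207 and 22 reads (4.02 and 0.998 CPM) and a log2 ratio of 2.01 (1.38 to 2.72). In per-length level over all exons, Ephb6 (8.16), Ephb4 (5.63), Ephb2 (5.02), Ephb3 (2.10) and Ephb1 (1.51) followed each other in the SVZ. Of these, Ephb4 (interval 5.08 to 6.22) and Ephb2 (4.70 to 5.35) did not differ beyond counting error.

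Efna3, a lipid-anchored ligand, was counted with 12 reads in the SVZ and 294 in the cortex (0.233 and 13.3 CPM), a log2 ratio of -5.84 (-6.81 to -5.01), and passed the minimum through the cortex alone, as Ephb3 did through the SVZ. The interval of Efna3 overlapped that of Ephb1, and 14.1% of its exon length is shared with Gm15998 on the other strand. Efnb3, the third transmembrane ligand, had 518 and 459 reads (10.07 and 20.8 CPM) and a log2 ratio of -1.05 (-1.23 to -0.86), whose interval reached within 2-fold. Efna1, Efna4 and Ephb6 stayed within 2-fold. The remaining 5 genes did not reach the minimum, with 15 and 0 reads for Epha2, 5 and 4 for Epha6, 0 and 10 for Epha8, 2 and 0 for Epha1 and 0 and 1 for Epha10. The limit for a gene with no read is 3 reads, which is 0.0583 CPM in the SVZ and 0.136 CPM in the cortex, and Epha1 and Epha10 stayed at or under it in both. Epha1 shares 6.01% of its exon length with Zyx on the other strand, and the sum of its stranded counts was 13 and 4 reads. Over the whole family, 17 of 22 genes passed the minimum, 4 of them past 2-fold towards the SVZ (background 20.0%) and 6 towards the cortex (background 15.6%).

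**Figure D5:**
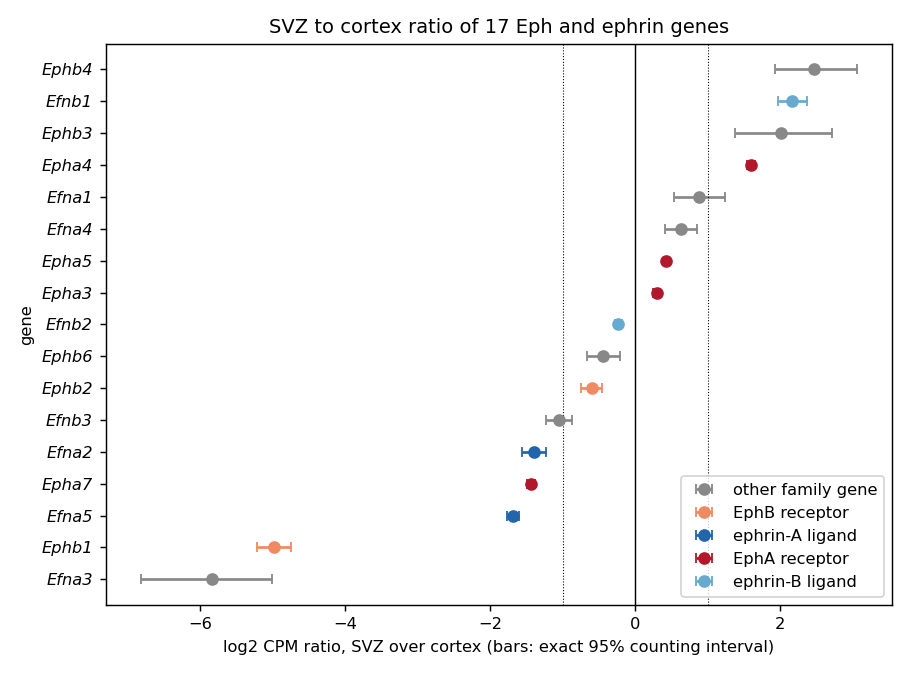
Log2 CPM ratio (SVZ over cortex) of the 17 Eph and ephrin genes that averaged 1 CPM or more, with exact 95% counting intervals, sorted by ratio, with the 10 genes coloured by class and the other family genes in grey. Dotted lines mark 2-fold, and the genes run from Efna3 (-5.84) to Ephb4 (2.47).

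Genes that carry or modify the Eph and ephrin signal were counted from a list of 50, of which 45 averaged 1 CPM or more. Of these, 6 passed 2-fold towards the SVZ (background 20.0%) and 11 towards the cortex (background 15.6%), and 28 stayed within 2-fold. Of the 6, Arhgef19 was at 0 reads in the cortex, and of the 11, Grip2, Ngef, Ngfr and Vav2 reached 1 CPM in the cortex alone. Their median log2 ratio was -0.16. Grb10, an adaptor protein, had 197 and 9.80 CPM and a log2 ratio of 4.33 (4.14 to 4.53). Nck1, an adaptor that links receptors to the actin skeleton, had 37.7 and 15.4 CPM (log2 ratio 1.29), and Abl1, a cytoplasmic tyrosine kinase, 22.2 and 10.1 CPM (1.14).

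On the cortex side were Itsn1, an exchange factor scaffold that acts with EphB receptors, with 52.2 and 177 CPM (log2 ratio -1.76), and Vav3, a guanine nucleotide exchange factor, with 4.80 and 16.1 CPM (-1.74). Chn2, a Rac GTPase-activating protein, had 22.9 and 68.9 CPM (-1.59), and Pak1, a kinase downstream of Rac, 101 and 247 CPM (-1.29). These 7 genes had the ratios furthest from 0, allowing for counting error, among signalling genes averaging 10 CPM or more, with at most 4 named per direction.

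The promoters of 4 genes are shown because they hold the largest ratios on the cortex side (Ephb1 and Efna5) and on the SVZ side (Efnb1 and Epha4). Each is the RefSeq promoter on GRCm38.p6, from 250 bases before to 50 bases after the start, written 5′ to 3′ on the strand of the gene, with each CG dinucleotide in capitals.
Ephb1 (chr9:102354644-102354943, minus strand): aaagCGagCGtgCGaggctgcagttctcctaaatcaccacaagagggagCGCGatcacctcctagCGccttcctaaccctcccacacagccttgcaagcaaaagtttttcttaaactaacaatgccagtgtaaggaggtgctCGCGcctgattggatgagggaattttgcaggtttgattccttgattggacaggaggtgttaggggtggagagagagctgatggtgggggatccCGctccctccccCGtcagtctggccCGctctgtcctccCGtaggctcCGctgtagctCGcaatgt
Efna5 (chr17:62881268-62881567, minus strand): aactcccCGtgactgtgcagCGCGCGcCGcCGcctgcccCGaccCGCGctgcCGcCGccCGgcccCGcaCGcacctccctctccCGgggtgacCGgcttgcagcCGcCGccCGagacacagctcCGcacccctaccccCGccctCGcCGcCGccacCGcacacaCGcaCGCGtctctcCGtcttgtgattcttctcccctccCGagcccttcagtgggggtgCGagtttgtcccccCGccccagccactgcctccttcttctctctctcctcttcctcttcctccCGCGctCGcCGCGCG
Efnb1 (chrX:99135811-99136110, plus strand): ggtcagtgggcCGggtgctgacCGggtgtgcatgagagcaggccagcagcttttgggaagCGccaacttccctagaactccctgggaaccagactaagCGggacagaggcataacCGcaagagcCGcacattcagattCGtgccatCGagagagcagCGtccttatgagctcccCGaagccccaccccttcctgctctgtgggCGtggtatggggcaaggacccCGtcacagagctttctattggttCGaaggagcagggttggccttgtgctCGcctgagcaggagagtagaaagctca
Epha4 (chr1:77515039-77515338, minus strand): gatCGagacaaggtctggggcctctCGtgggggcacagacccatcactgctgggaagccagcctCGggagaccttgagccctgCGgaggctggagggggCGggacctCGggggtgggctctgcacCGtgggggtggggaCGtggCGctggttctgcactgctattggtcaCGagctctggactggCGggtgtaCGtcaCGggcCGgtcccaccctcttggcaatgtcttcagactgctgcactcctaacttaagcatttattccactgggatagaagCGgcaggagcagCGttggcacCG

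Ephb1 and Efnb1, which stood at opposite ends of the ratios, both held 14 CG dinucleotides in this window, Epha4 held 17 and Efna5 held 38. All 10 genes were matched to a promoter, and they held between 14 and 38 CG. Over the 12472 promoters of genes averaging 1 CPM or more the median was 21, with quartiles of 12 and 29, and Epha5, Efna2, Efna5 and Efnb2 lay above the upper quartile. The E-box CAGNTG, a motif of proneural factors, was found on either strand in Ephb2 and Efnb2, 2 of 10 genes, and in 51.4% of all 32851 promoters, or 43.8% of those of expressed genes. The GC box GGGCGG was found in 6 of 10 genes and in 35.7% of all promoters, or 62.9% of those of expressed genes. The TATA box TATAAA was found only in Efnb2 of the 10 genes (13.6% of all promoters and 6.87% of those of expressed genes), and the SOX motif ACAATG only in Ephb1 (12.6% and 7.37%). The matches are letters within this window and were counted on both strands.

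The genes most like Efnb1 and Ephb1 were sought by the distance between log2 CPM values over the 2 libraries, among 8991 genes averaging 10 CPM or more. Nearest to Efnb1 were Anxa2 (distance 0.071), Hmg20b (0.118) and Apool (0.130). Nearest to Ephb1 were Kirrel3 (0.265), Lrrtm1 (0.302) and Baiap2 (0.372). With 2 libraries this likeness says only that both levels are close.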

How the data were processed

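RNA of the SVZ and of the cortex, 1 library each, was made into libraries with a low-input kit from 1 ng RNA and sequenced as paired ends. Per the labels and the study's methods, the authors trimmed adapters with cutadapt 4.1, mapped read 1 to mm10 with STAR 2.7.9a and deposited its whole-read counts per gene, not normalized, in an unstranded column and a column for each strand. The annotation version is not given in the sources used here. STAR drops reads that map to several places or overlap several genes. A further deposited table repeats these counts with the authors' CPM, fold change and log10 change, and was not used.

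Unstranded counts gave CPM on the sum of gene rows, without the 4 summary lines, and gene rows held 59.0% (SVZ) and 59.1% (cortex) of all counted reads. For the 10 genes the stranded columns added up to the unstranded count, save for a difference of 1 read in Efna2 in each library. A count of 0 was set at 3 reads. Genes averaging 1 CPM or more were compared. Lengths came from GENCODE M21 (GRCm38) by symbol, for 96.4% of these genes. The 10 genes and all lists were chosen with earlier results of these data known. Named are the 10 genes, family genes at least 2-fold apart, up to 4 signalling genes per direction averaging 10 CPM or more, ranked by the interval end nearer to 0, the study's markers, and the 3 nearest genes in levels. Alternatives were stranded sums, a pseudocount of 1 CPM, thinning of the deeper SVZ library to the depth of the cortex, other minimums, thresholds and lengths, and scaling by TMM and upper quartile in edgeR (4.0.16, with R 4.3.3), by size factors of DESeq2 (1.42.0) and by library sums that leave out the 10 genes with most reads. RefSeq-matched lengths and sums over the whole family were added after seeing the data, and other family, signalling and marker genes given by name were singled out after their values were seen. Ratios and intervals were computed in Python 3.11.15 with scipy 1.17.1, numpy 2.4.6 and pandas 2.3.3, and drawn with matplotlib 3.10.9. The code was run on simulated Poisson counts with known ratios. These hold counting error only, so they check the computation and not how well the intervals suit amplified libraries.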

Additional observations from a re-analysis of the deposited data

How the results depend on the processing

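No paired analysis was possible because only 1 library was made per area, and no replicate could be left out. None of the 10 genes changed the sign of its log2 ratio under 7 alternatives (4 scalings, stranded sums, thinning of the SVZ library, a pseudocount of 1 CPM), and the numbers of the 10 genes at least 2-fold higher in SVZ (2) and cortex (4) moved only with a threshold of 4-fold, to 1 and 1. The ratio of Epha3 lay between 0.20 and 0.32, that of Efnb2 between -0.33 and -0.23, and that of Ephb1 between -5.12 and -4.58, the latter with the pseudocount. Of the other family genes, 2 in the SVZ became 0 among genes averaging 10 CPM or more, which left 3 genes to compare, and 2 in the cortex became 1 at that minimum, with a pseudocount, at 4-fold and when the whole interval had to pass 2-fold. Of the signalling genes, 6 and 11 became 2 and 4 at 4-fold and 3 and 6 among genes averaging 10 CPM or more, and the 6 became 4 with TMM, upper-quartile and DESeq2 factors and when the whole interval had to pass 2-fold.

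Per-length sums moved with the length. In the SVZ, with the longest transcript and then with RefSeq-matched exons (chosen after seeing the data), EphA receptors went from 434 to 514 and 456, EphB receptors from 6.53 to 5.92 and 5.29, ephrin-A ligands from 53.6 to 39.3 and 35.2, and ephrin-B ligands from 143 to 137 and 123. In the cortex, EphA receptors went from 349 to 430.2 and 383, EphB receptors from 61.2 to 65.9 and 60.1, ephrin-A ligands from 179 to 133 and 121, and ephrin-B ligands from 137 to 142 and 129. Stranded sums gave 424 and 340.3 for the EphA receptors in SVZ and cortex and 139 for the ephrin-B ligands in the SVZ. Of the 10 genes, 6 kept their rank in the SVZ and 6 in the cortex with the longest transcript, and 6 and 5 with RefSeq-matched exons. The ratio of EphA receptors to ephrin-A ligands went from 8.10 to 13.1 (longest transcript), 12.97 (RefSeq-matched), 4.31 (whole family) and 6.90 (whole family, RefSeq-matched) in the SVZ, and from 1.95 to 3.25, 3.16, 1.51 and 2.44 in the cortex. That of ephrin-B ligands to EphB receptors went from 21.9 to 6.86 (whole family) and 7.74 (whole family, RefSeq-matched) in the SVZ. In the cortex this ratio went from 2.23 to 2.09 (whole family, RefSeq-matched). The sums over the whole family were added after seeing the data.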
